A study of Homo sapiens with 4 samples.

Results

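S100A10 ChIP over input in HCT116 PGCCs comprised every line of the HCT116 peak list, in which lines of equal chromosome, start and end were merged to 1 interval. The list held 4530 summits in 4148 intervals, of 5528 intervals in the series as a whole. HCT116 is an established human colorectal carcinoma cell line, known for a near-diploid karyotype with gained segments on chromosomes 8, 10, 16 and 17. PGCCs (polyploid giant cancer cells) with their daughter cells were induced with CoCl2, a chemical that mimics hypoxia. The sample labels give a dose of 535.5 μM and a time of 48 h. The study's methods give a lower dose and a range of times that includes 48 h. They also describe the treatment as repeated, with recovery of the surviving cells in between. Chromatin was crosslinked, cut with micrococcal nuclease and sonicated, and the fragments recovered with an S100A10 antibody were sequenced as 1 ChIP library and compared with 1 input library from HCT116 PGCCs with daughter cells under the same treatment. The ChIP library held 16561424 tags and the input 14962190 tags after filtering. No untreated sample was used here, and with 1 library per arm no value has a replicate error, so no test was run and every difference below is between positions of the same list. A peak list holds no expression, and the identity of the cells could not be checked against marker genes.

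S100A10 is a small protein of the S100 family that lacks a functional calcium switch and forms a tetramer with annexin A2 (ANXA2). The complex is best known at the plasma membrane, where it binds plasminogen and tethers ion channels, and S100A10 has no DNA-binding domain. ChIP with such a protein recovers DNA that it may contact through other proteins, together with the nonspecific background of the antibody. Regions next to the centromeres and the short arms of the acrocentric chromosomes are rich in tandem satellite repeats and segmental copies, in which reads are difficult to place. Tandem repeats were not searched for in the intervals, since no genome sequence was used here.

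Few of the promoters searched overlapped an interval, although intervals covered a larger share of their bases than of the arms. The promoters searched lack those of 1 chromosome named below. The shares of bases were 0.107% of promoters and 0.0420% of the arms between first and last gene, not over the same sequence. Of 35116 RefSeq promoters (the 250 bases before to 50 bases after a gene's start, GRCh38.p14), 68 overlapped an interval by at least 1 bp, or 0.194%. Of these, 3 had a −log10 q of 2 or more, where q is the false discovery rate that MACS gives a peak. They are shown because they are the best-scored of the promoters searched, with the bases inside the interval in capitals. PFKL encodes the liver type of phosphofructokinase, a glycolytic enzyme, and its promoter lies at chr21:44299803-44300102 on the plus strand. LINC02641, a long noncoding RNA, has its promoter at chr10:123482717-123483016 on the plus strand. MIR762HG, the host gene of a miRNA, has its promoter at chr16:30875210-30875509 on the plus strand.
PFKL: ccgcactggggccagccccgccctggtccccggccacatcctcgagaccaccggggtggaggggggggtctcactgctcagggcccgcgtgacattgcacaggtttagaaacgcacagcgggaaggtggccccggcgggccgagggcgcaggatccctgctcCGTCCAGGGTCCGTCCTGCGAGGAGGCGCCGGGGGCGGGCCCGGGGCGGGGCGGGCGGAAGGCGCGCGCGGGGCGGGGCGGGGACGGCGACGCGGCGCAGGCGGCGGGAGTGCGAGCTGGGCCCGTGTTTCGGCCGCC
LINC02641: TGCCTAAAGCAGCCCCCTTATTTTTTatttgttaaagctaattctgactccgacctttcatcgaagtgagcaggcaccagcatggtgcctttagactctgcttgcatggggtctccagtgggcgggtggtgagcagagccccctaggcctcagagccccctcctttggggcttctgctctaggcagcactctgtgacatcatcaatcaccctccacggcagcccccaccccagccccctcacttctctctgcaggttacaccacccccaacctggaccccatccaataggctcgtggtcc
MIR762HG: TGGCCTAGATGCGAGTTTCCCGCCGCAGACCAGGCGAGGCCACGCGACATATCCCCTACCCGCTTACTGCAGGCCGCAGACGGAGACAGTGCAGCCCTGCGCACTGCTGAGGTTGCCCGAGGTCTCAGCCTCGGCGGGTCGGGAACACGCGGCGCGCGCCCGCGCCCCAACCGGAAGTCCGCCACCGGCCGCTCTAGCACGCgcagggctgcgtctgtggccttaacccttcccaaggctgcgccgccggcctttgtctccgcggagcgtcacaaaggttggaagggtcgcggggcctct

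No promoter of chromosome 8 was in the set searched. At PFKL the summit of 11 tags lay 123 bp downstream of the gene's start, and the promoter was 78.3% GC with 40 CpG. The interval at LINC02641 (10 tags) reached 26 bases into a promoter of 57.3% GC with 5 CpG. The interval at MIR762HG (10 tags) covered 202 bases of a promoter of 69.7% GC with 36 CpG. The 68 promoters with an interval had a median GC content of 69.0%, against 58.7% over all promoters, and a median of 28 CpG against 14. None of the 68 held GGAAT in tandem, TTAGGG in tandem (2 copies each, both strands) or the CENP-B box. Over all promoters these were found in 0.0740%, 0.00570% and 0.0399%. At shares this low, none among 68 promoters was likely in any case, so nothing is concluded from it. Next in score came the promoters of FAM230E, a long noncoding RNA, with 20 tags and a −log10 q of 1.92, and FOXN3, a forkhead transcription factor, with 12 tags and a −log10 q of 1.66. TWF2, an actin-binding protein, followed with 10 tags and a −log10 q of 1.52.

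The intervals were mostly small. A tag is a ChIP read extended to 260 bp, and the tags at a summit were recovered from the pileup, which the authors had scaled to the input. The best summit of an interval rested on a median of 8 tags (quartiles 7 and 10, highest 486). A total of 2261 intervals (54.5%) had 6 to 8 tags, and 430 (10.4%) had 20 or more. The median length was 326 bp, and 1156 intervals (27.9%) were 260 bp long, the length of 1 extended tag and the shortest in the list. Only 1065 intervals (25.7%) had a q of 0.05 or less. Across the 4148 intervals, tags and length had a Spearman correlation of 0.43, a description over intervals that share both libraries. Of the intervals, 3415 (82.3%) lay on chromosomes 1 to 22, 2 on chromosome X, 66 on chromosome Y and 665 on 72 unplaced or unlocalized sequences.

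Intervals per Mb differed widely between chromosome arms. Density was counted over the part of an arm between its first and last annotated gene, which held 3097 of the intervals on chromosomes 1 to 22, and 41 arms with such a length of 10 Mb or more and at least 1 interval were compared. The median arm had 0.768 intervals per Mb (quartiles 0.551 and 1.28). The short arm 21p stood highest with 225 intervals, or 21.1 per Mb (95% Poisson interval of the count 18.5 to 24.1, which covers counting error only). Next came 22p with 146 intervals and 11.4 per Mb (9.62 to 13.4). Both are short arms of chromosomes whose centromere lies near an end. The length counted includes outer windows without any interval, from 0 to 5 Mb on 21p and 0 to 10 Mb on 22p. Whether reads can be placed there was not checked, and the densities and order of these 2 arms depend on it.

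The long arms 17q, 20q and 8q followed, and 16q and 10q came behind them. On 17q there were 248 intervals, or 4.41 per Mb (3.88 to 4.99). On 20q there were 131, or 3.66 per Mb (3.06 to 4.35). On 8q there were 343, more than on any other arm, at 3.48 per Mb (3.12 to 3.87). The arms 16q (148 intervals, 3.38 per Mb) and 10q (255 intervals, 2.78 per Mb) were within 1.5 times of 20q. At the other end, 6q had 32 intervals (0.290 per Mb, 0.198 to 0.409) and 4q had 42 (0.304 per Mb, 0.219 to 0.410). The arms 2q (0.385 per Mb), 3q (0.393 per Mb) and 13q (0.406 per Mb) completed the 5 sparsest, and their Poisson intervals overlapped those of 6q and 4q.

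**Figure D1:**
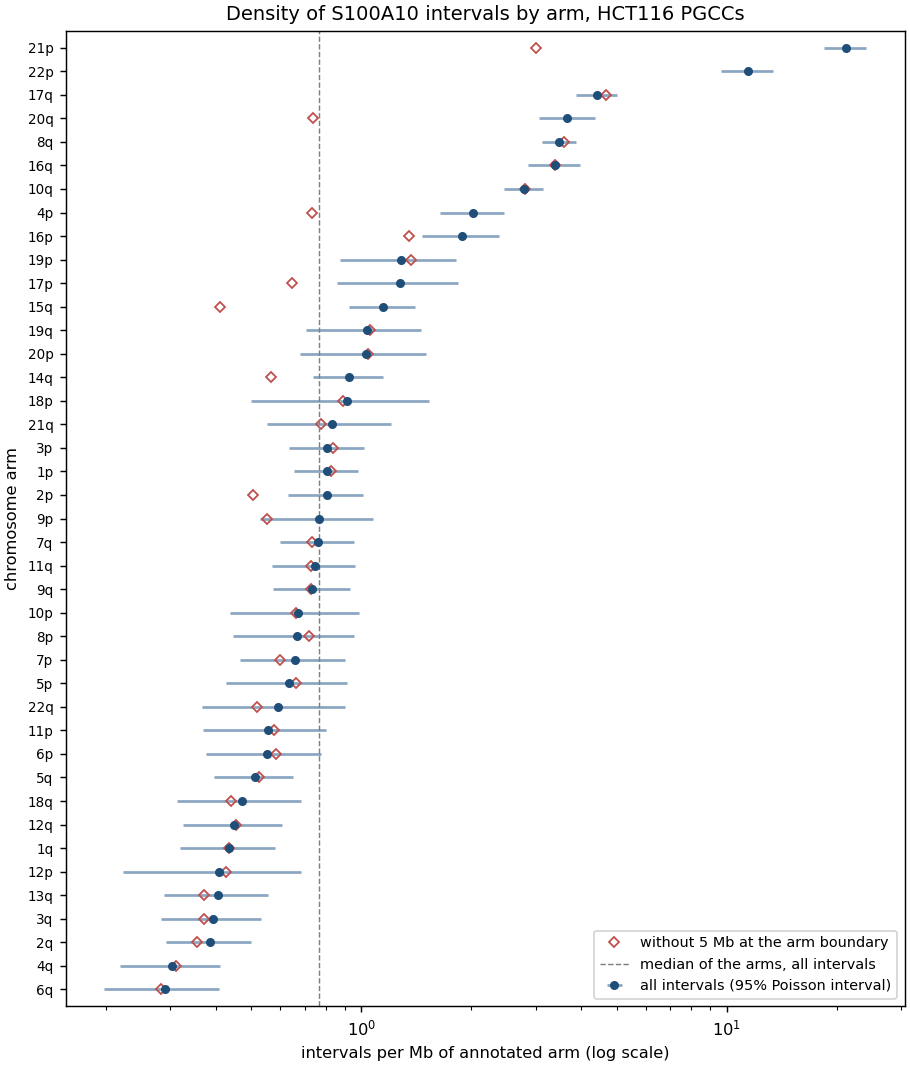
Intervals per Mb of annotated arm on a log axis for 41 arms, ordered by density, with 95% Poisson intervals as bars (counting error only), the density without 5 Mb at the arm boundary as open diamonds, and the median arm as a dashed line. The arms 21p, 20q, 4p and 15q move left without the boundary, 22p has no interval left and no diamond, and 17q, 8q, 16q and 10q stay near 3 to 5 per Mb.

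The dense arms fell into 2 kinds when intervals within 5 Mb of the boundary between p and q were left out together with that length. On 22p no interval remained, since its windows from 0 to 10 Mb were empty. Whether reads can be placed in that outer length was not checked, so this 0 is not a measured density. The value of 20q went to 0.737 per Mb, that of 4p from 2.02 to 0.734 and that of 21p to 3.0. In contrast, 17q had 4.67 per Mb, 8q 3.59, 16q 3.38 and 10q 2.81, and the next arm after these and 21p was 19p with 1.37. The median arm had 0.661 by this count. Within the same chromosome, the density of 8q was 5.23 times that of 8p, 10q was 4.14 times 10p, 17q was 3.45 times 17p and 16q was 1.80 times 16p. Without the boundary these ratios were 4.98, 4.25, 7.21 and 2.50. Together, 8q, 10q, 16q and 17q held 1079 intervals with those outside the annotated length, or 31.6% of those on chromosomes 1 to 22, in 10.6% of the annotated length.

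On these 4 arms the intervals were not spread evenly. Windows of 5 Mb with 10 or more intervals, with at most 2 sparser windows between them, formed 1 long stretch on each, defined after the windows had been seen. On 8q the stretch ran from 65 to 145 Mb with 330 of the arm's intervals, or 4.13 per Mb, against 0.740 per Mb in the rest of the arm. The stretch of 10q ran from 100 to 130 Mb with 210 intervals (7.0 per Mb, rest 0.678 per Mb). That of 16q ran from 75 to 90 Mb with 124 intervals (8.27 per Mb, rest 0.835 per Mb). The stretch of 17q began at 45 Mb and reached the end of the arm, with 240 intervals (6.28 per Mb, rest 0.537 per Mb). The stretches held 904 intervals in 163 Mb, or 26.5% of the intervals on chromosomes 1 to 22 in 5.97% of the annotated length. The rest of the arms, at 0.537 to 0.835 per Mb, was near the median arm of 0.661 without the boundary. Since the stretches were chosen for their density, these values are a description.

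**Figure D2:**
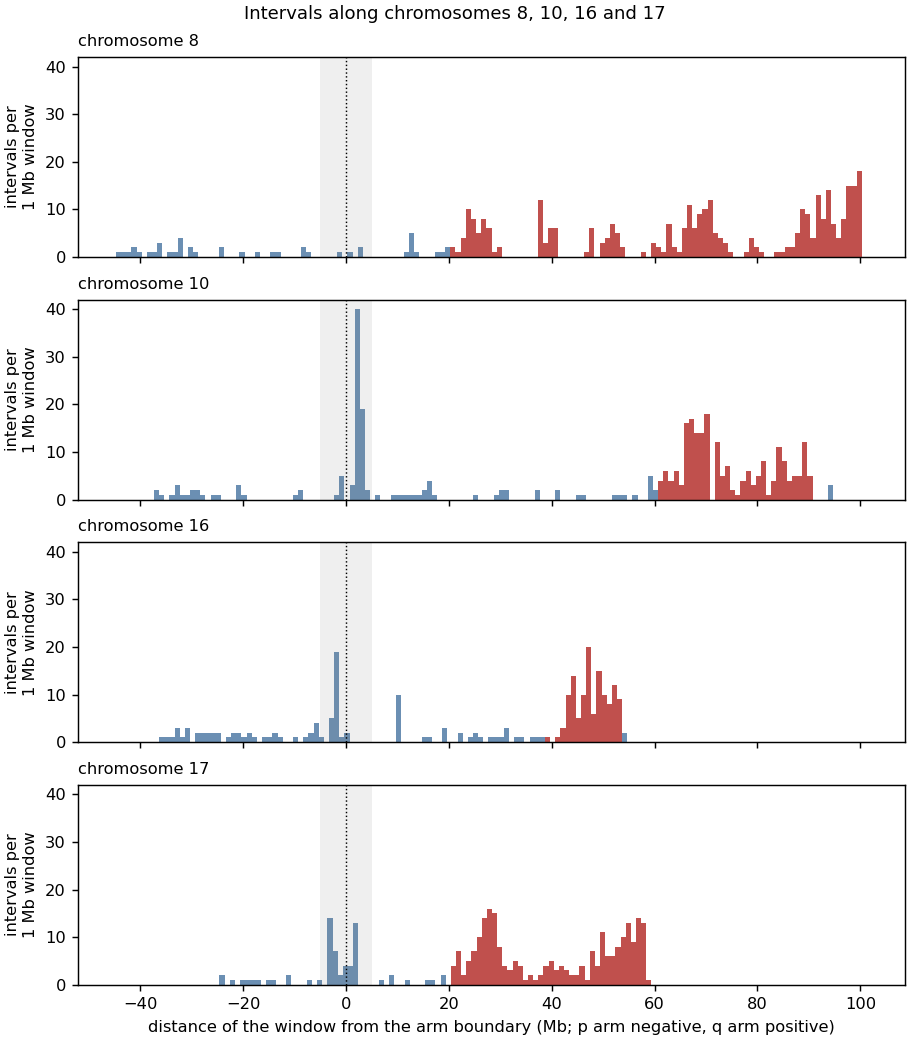
Number of intervals in each 1 Mb window of chromosomes 8, 10, 16 and 17 against the distance from the boundary between p and q, with windows of the dense stretches in red, other windows in blue and the 5 Mb on each side of the boundary shaded. The intervals of 8q, 10q, 16q and 17q gather in the outer part of the long arm, and a separate narrow group stands near the boundary on 10, 16 and 17.

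Inside the stretches the density varied from 1 Mb to the next. On 10q, the 5 windows from 105 to 110 Mb held 16, 17, 14, 14 and 18 intervals, 79 in all, and the next window held 0. This part of 10q includes SORCS3 and SORCS1, neighboring genes for sorting receptors of neurons. On 17q, the windows that start at 51, 52 and 53 Mb held 14, 16 and 15 intervals, and those that start at 59, 60, 61 and 62 Mb held 1, 2, 1 and 2. On 16q the highest window started at 83 Mb, with 20 intervals, and overlapped CDH13. On 8q the windows that start at 142, 143 and 144 Mb held 15, 15 and 18, and 21 of the 80 windows of its stretch held none. The Spearman correlation between the intervals and the gene starts of a 1 Mb window was −0.14 on 8q, −0.51 on 10q, 0.08 on 16q and 0.18 on 17q, a description over neighboring windows of 1 list.

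Peaks in the stretches were individually weak. Their best summits had a median of 7 tags (quartiles 7 and 8), and 703 of 904 (77.8%) had 6 to 8 tags. Only 5 had 20 tags or more. A single summit was called in each, the median fold enrichment was 3.25, and 48 (5.31%) had a −log10 q of 2 or more. In the parts of the arms outside the stretches and the boundary regions, 1463 intervals had a median of 8 tags, a median fold of 3.25 and 10.8% at this limit. The local background, which the caller sets from the input around a summit and never below the genome-wide mean, exceeded that mean by over 5% at 26.5% of the intervals in stretches and at 29.1% of those outside. Within an arm, this share was 29.1% in the stretch of 8q and 9.09% of 11 intervals in the rest. On 17q it was 28.3% against 12.5% of 8, and on 16q 15.3% against 12.5% of 24. On 10q it was lower in the stretch, 27.1% against 35.0% of 40. Copy number was not measured here, and its part in these densities was not tested.

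Summits in the stretches lay in genes at shares close to the length that genes cover. On 8q, 53.9% of the summits lay in a gene, and genes cover 56.2% of the stretch. The shares were 49.5% and 58.9% on 10q, 75.8% and 68.6% on 16q and 67.1% and 65.7% on 17q. Of the 894 protein-coding genes with an interval, 242 (27.1%) had their best one in a stretch.

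Spacing also differed between the locations. Intervals within 5 Mb of the boundary (called pericentromeric here) followed each other with a median gap of 2.52 kb (quartiles 0.662 and 23.1 kb), and 33.1% of these gaps were at most 1 kb. In the dense stretches the median gap was 76.1 kb (27.3 and 176 kb), and 1.11% were at most 1 kb. The median gap was 284 kb in the outer 2 Mb of the arms (called distal) and 837 kb elsewhere on the arms. A high count per Mb thus came with packed intervals near the boundary and with wider spacing in the stretches.

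**Figure D3:**
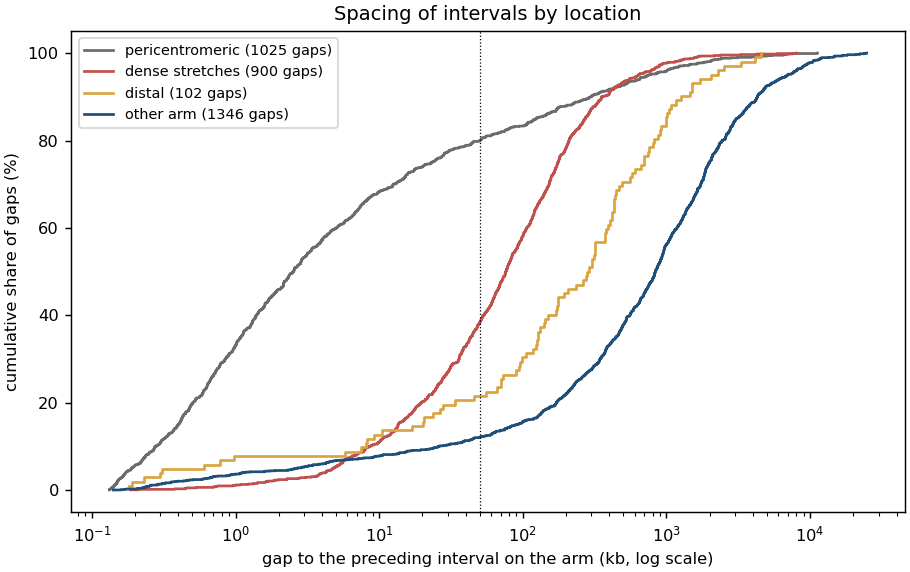
Cumulative share of gaps between successive intervals of an arm, on a log axis in kb, for the pericentromeric, dense-stretch, distal and other locations, with the 50 kb limit for runs dotted. The median is 2.52 kb for the pericentromeric gaps, 76.1 kb for the dense stretches and 837 kb elsewhere on the arms.

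A run was 3 or more successive intervals with gaps of at most 50 kb. There were 171 runs with 1298 intervals, 38.0% of those on chromosomes 1 to 22, and the median run held 4 intervals over 45.8 kb. Among pericentromeric intervals 82.7% were in a run, in the stretches 32.3%, in the distal parts 16.9% and elsewhere on the arms 8.85%. Intervals in runs had a median of 9 tags and 31.7% had a −log10 q of 2 or more. For those outside runs these values were 7 tags and 8.41%.

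The longest run lay on 21p at chr21:10325609-10814424, with 129 intervals in 489 kb, a median of 10 tags and a highest summit of 119. It covered BAGE2, a transcribed pseudogene of the BAGE family of tumor antigens that held 29 intervals, more than any protein-coding gene, and TPTE, which encodes a membrane protein of the testis. A run of 52 intervals lay on 15q at chr15:20193540-20439105, with a median of 9 tags, over CHEK2P2 and HERC2P3, pseudogene copies of CHEK2 and HERC2. On 4p, a run of 42 intervals at chr4:49091380-49166399 took 75.02 kb and had a median of 34.5 tags. On 10q, a run at chr10:41850539-41915426 held 37 intervals with a median of 15 tags and overlapped no annotated gene. Of the 5 runs with the most intervals, the highest median was that on 1q, at chr1:143184634-143267535, where 33 intervals in 82.9 kb had a median of 66 tags, 31 of them with a −log10 q of 2 or more. That run lies more than 5 Mb from the boundary, outside the annotated length of 1q, and also overlapped no gene. Runs of 33 intervals were also present on 21p (chr21:7916041-8048778, median 9 tags) and at 2 places on 22p (median 10 tags in both).

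The longest gaps lay on arms of low density. The longest, on 2q, was 24.8 Mb, from 177735878 to 202520745. Gaps of 23.8 Mb on 4q, 22.3 Mb on 12q, and 22.1 and 20.9 Mb on 6q followed, and the latter 2 were separated by 1 interval. Among 5 Mb windows, the fullest were chromosome 22 from 10 to 15 Mb with 146 intervals, chromosome 21 from 10 to 15 Mb with 140 and from 5 to 10 Mb with 132, and chromosome 4 from 45 to 50 Mb with 86. The only one of the 5 fullest windows outside the boundary regions was that of 10q from 105 to 110 Mb, where the 79 intervals had a median of 7 tags and 4 had a −log10 q of 2 or more. In the window of chromosome 4 this held for 47 of 86.

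Tags and length were both higher near the boundary than elsewhere on the arms. The 1048 pericentromeric intervals had a median of 10 tags (quartiles 8 and 14) and a median length of 384.5 bp (288 and 562 bp), and 383 (36.5%) had a −log10 q of 2 or more. Several summits were called in 9.92% of them. In the 2170 intervals elsewhere on the arms, which include most of the stretches, the medians were 7 tags and 285 bp, 8.48% passed this limit and 1.06% held several summits. The 197 distal intervals had medians of 8 tags and 291 bp. Unplaced and unlocalized sequences stood above all of these, with medians of 11 tags (quartiles 8 and 21) and 439 bp. The 68 intervals of chromosomes X and Y had medians of 15 tags and 430 bp. The local background was higher there as well. It exceeded the genome-wide mean by over 5% at 48.0% of the pericentromeric intervals, 20.8% of the distal and 28.8% of those elsewhere on the arms. The part of this higher input in the tags was not tested.

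**Figure D4:**
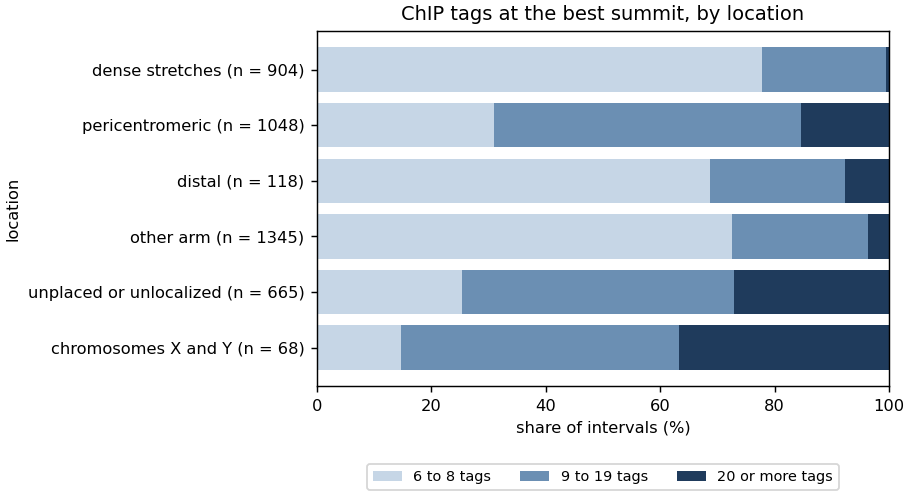
Share of intervals with 6 to 8, 9 to 19 and 20 or more ChIP tags at the best summit for 6 locations, with the number of intervals beside each and distal and other arm counted outside the dense stretches. The lowest class makes up 77.8% in the dense stretches, 30.9% near the boundary and 25.3% on unplaced sequences.

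Chromosomes differed in both number and height. Of the pericentromeric intervals, 253 were on chromosome 21, 151 on 22, 119 on 20, 87 on 4 and 73 on 15, and 4 on chromosome 8. Their medians ran from 8 tags on 11 and 14 to 88 tags on chromosome 5, where 11 intervals had a median local background of 16 tags. On chromosome 16 the 27 pericentromeric intervals had a median of 42 tags over a background of 5 tags. On chromosomes 21 and 22 the medians were 9 tags over a background of 1.26, near the genome-wide mean. Many low intervals thus stood beside the boundaries of 21 and 22, and few high ones beside those of 5 and 16.

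The highest summit of all had 486 tags at chr1:125178808-125180699, over a local background of 113 and with a fold of 3.86. On chromosome 16, chr16:34582692-34583903 had 334 tags over a background of 44.0 (fold 6.73). Of the intervals called other arm, the 4 highest lay next to each other on 16q, between 46387561 and 46401674, with 324 to 406 tags, and the fifth, with 314 tags, belonged to the run of 1q. Those on 16q also lie outside the annotated length of their arm. The 1 Mb windows from 37 to 46 Mb before them held no interval and no gene start. The highest distal interval, chr18:107888-109498, had 313 tags and overlapped ROCK1P1, a pseudogene copy of the kinase gene ROCK1, and the second (206 tags) lay in the same gene. The third distal one, chr4:190179291-190179978, had 203 tags over a background of 26 tags and lay in DUX4, a double homeobox transcription factor gene within the D4Z4 repeats of 4q that is silent in most adult tissues. The longest interval on an assembled autosome, chr20:31070758-31074726, was 3969 bp with 6 summits and a best summit of 25 tags. On unplaced sequences the longest had 7399 bp and 12 summits, on KI270733.1, and the highest had 445 tags, on KI270438.1.

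**Figure D5:**
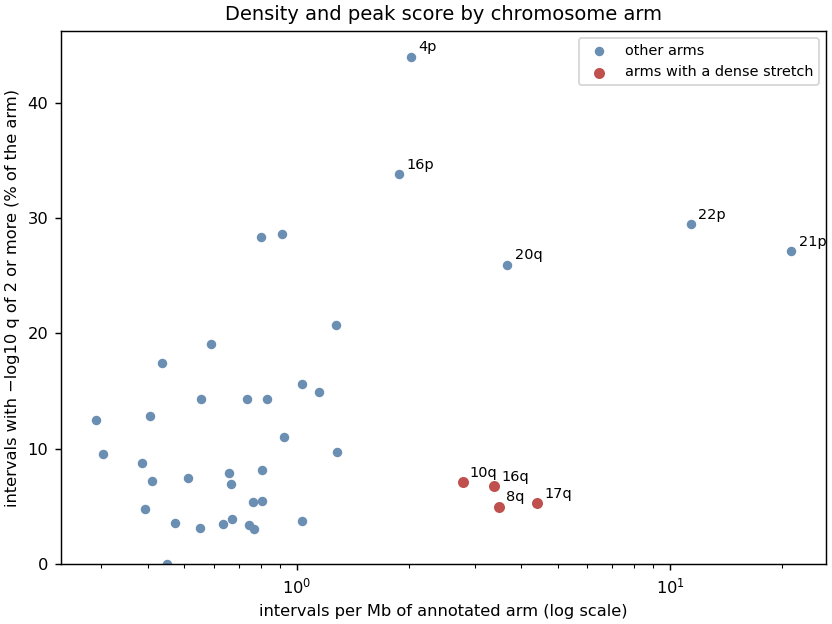
Share of an arm's intervals with −log10 q of 2 or more (%) against its intervals per Mb (log axis) for 41 arms, with the 4 arms that hold a dense stretch in red. The arms 21p, 22p, 20q, 4p and 16p lie between 25.95% and 44.0%, and 8q, 10q, 16q and 17q between 4.96% and 7.06%.

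A −log10 q of 2 or more was reached by 27.1% of the intervals on 21p, 29.5% on 22p, 25.95% on 20q and 44.0% on 4p. On 17q this share was 5.24%, on 8q 4.96%, on 16q 6.76% and on 10q 7.06%. Counting only such intervals, the order of the arms was 21p (5.73 per Mb), 22p (3.36), 20q (0.951), 4p (0.888) and 16p (0.637). The arms 17q, 16q, 10q and 8q then came at ranks 8, 9, 11 and 12, at 2.28 to 3.05 times the median arm. Counting only intervals with a fold of at least 5, 17q, 8q, 16q and 10q came at ranks 13, 14, 18 and 20. They held only 2, 3, 1 and 2 such intervals, at 1.79, 1.54, 1.15 and 1.10 times the median arm.

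Genes held a smaller share of interval bases than the arms as a whole. Intervals covered 0.0420% of the annotated length, 0.0340% of gene bodies and 0.0310% of protein-coding gene bodies. Of promoter bases they covered 0.107%, a value without chromosome 8 and so not over the same sequence. At least 1 interval overlapped 1347 of 59679 genes (2.26%) and 894 of 20037 protein-coding genes (4.46%). Of the latter, 85 had an interval with a −log10 q of 2 or more, 19 of them in a stretch. The median distance from a summit to the nearest start of a gene was 54.9 kb, with 18.1 kb in the distal parts, 29.5 kb in the stretches and 157 kb near the boundary, without chromosome 8.

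The protein-coding gene with the most intervals was CDH13, which encodes T-cadherin, an adhesion protein anchored to the membrane by a lipid. Its 24 intervals had 6 to 10 tags with a median of 7, and 1 had a −log10 q of 2 or more. Over its 1.17 Mb this makes 20.4 per Mb, against 8.27 per Mb in the stretch of 16q around it. SORCS1 held 14 intervals of 6 to 12 tags (23.05 per Mb), none with a −log10 q of 2 or more. CA10, a carbonic anhydrase relative without enzyme activity, held 12 intervals of 6 to 10 tags (22.7 per Mb) on 17q. These 3 genes, named for their counts, exceeded the density of their own stretch, and none had a peak above 12 tags.

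TTC34 and TPTE held 10 intervals each. In TTC34, on 1p and outside the stretches, they were packed in 0.165 Mb with a median gap of 3.49 kb, and the tags ran from 8 to 45. Its highest interval, chr1:2652881-2654319, had 45 tags over a background of 5 tags, a fold of 6.94 and a −log10 q of 18.3, and 5 of the 10 reached a −log10 q of 2. In TPTE, within the long run of 21p, the tags ran from 6 to 10 and none reached it. RBFOX3, which encodes the neuronal splicing factor NeuN, held 9 intervals on 17q with 6 to 11 tags. FAM135B on 8q held 8 intervals with 6, 6, 7, 7, 8, 9, 9 and 13 tags. The interval of 13 tags, chr8:138206176-138206528, was the best-scored in a protein-coding gene of any stretch, with a −log10 q of 3.86, a value shared by 1 interval of 13 tags in DLX3, a homeobox gene of 17q.

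The 20 protein-coding genes with the best-scored intervals were led by DUX4 (203 tags, −log10 q 83.5) and TTC34. RANBP2, a nuclear pore protein gene, and SH3RF3 followed with the same interval of 43 tags on 2q, which lies in both gene bodies. TMEM242 on 6q had 40 tags (−log10 q 10.4). MUC6, a gel-forming mucin of the stomach, and EMP2, a small membrane protein gene, each had an interval of 19 tags (fold 8.06, −log10 q 10.1). CACNA1C, a subunit of the L-type calcium channel, had 18 tags (−log10 q 7.60), and COL23A1, a collagen with a membrane-spanning segment, had 17 (−log10 q 5.11). FASLG, the ligand of the death receptor Fas, had 15 tags (−log10 q 4.36). The others were LOC101927345, ARHGEF18, FAM135B, DLX3, FAM163B, RCC2, LRFN2, SRL, FZR1 and NBPF12. Of these, RCC2 and FZR1 act in mitosis, and each had 12 tags with a −log10 q of 2.93. Only FAM135B and DLX3 of the 20 were in a stretch.

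Of the genes that the study measured by PCR, ARHGEF18 and PTPRN2 overlapped intervals and DEFA3 did not. The study had chosen these genes from the peaks of both cell lines, by −log10 q and by gene function. An overlap with this list is therefore not an independent result. ARHGEF18, a guanine nucleotide exchange factor, had 1 interval, chr19:7450637-7451107, with 19 tags over a background of 3 tags, a fold of 4.54 and a −log10 q of 4.29. PTPRN2, a phosphatase-like protein of secretory vesicles, had 4 intervals with 6, 11, 6 and 6 tags, and 1 of them (11 tags, fold 4.85) had a −log10 q above 2. The interval nearest to DEFA3, a defensin of neutrophils, lay 46.8 kb away with 7 tags. S100A10 itself had none within 222 kb, and ANXA2 none within 1431 kb.

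Gene families differed in how often they held an interval. The lists were chosen with earlier results of these data known. Of 112 cadherin, protocadherin and integrin genes 20 (17.9%) overlapped an interval, against 4.46% of protein-coding genes. However, 13 of these are PCDHA1 to PCDHA13, whose bodies are nested in each other and share 1 or both of the same 2 intervals of 5q, and CDH13 alone held 24 of the 52 overlaps. PCDH15, a protocadherin of the inner ear, had 4 intervals of 7 to 10 tags, and ITGA3 and ITGB4, integrin subunits of epithelia, had 2 each with at most 9 tags. Per Mb of gene body the adhesion genes had 2.75 overlaps, against 0.929 for protein-coding genes. Of 125 genes for collagens, laminins and matrix proteases 9 (7.2%) had one, or 0.800 per Mb, led by COL23A1, and COL22A1 on 8q had 5 intervals of 6 to 11 tags.

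The DUX4 family held the best-scored interval of the list. Intervals overlapped 10 of its 52 genes and pseudogenes (19.2%), against 2.26% of all genes and 0.594% of pseudogenes. The median member is 1.28 kb long. DUX4L26 on chromosome 3 had 225 tags with a −log10 q of 161. DUX4 had 203 tags, DUX4L19 on chromosome Y 55 tags, DUX4L44 on chromosome 22 36 tags, and DUX4L17 and DUX4L18, both on Y, 34 and 20 tags. How alike these copies are was not measured here, and the assignment of a read to 1 of them is uncertain. Of 29 genes and pseudogenes of the USP17L family of deubiquitinases, 4 (13.8%, against 4.46% of protein-coding and 2.26% of all genes) had an interval with 11 to 24 tags. All 4 are on chromosome 4. Of these, 3 are protein-coding and USP17L6P is a transcribed pseudogene. No interval overlapped any of 34 S100 and annexin genes, 6 plasminogen system genes, 16 genes of the hypoxia response or 10 colon epithelium genes, whose bodies add up to 1.47, 0.194, 0.678 and 0.349 Mb. All protein-coding genes had 0.929 overlaps per Mb. SENP7 was the 1 of 18 SUMO pathway genes with an interval, of 10 tags and a −log10 q of 0. Zinc finger genes had 19 of 702 (2.71%) and olfactory receptors 2 of 875 (0.229%), against 2.26% of all genes. The median olfactory receptor is 0.963 kb long, against 5.51 kb for all genes. Per Mb of gene body, olfactory receptors had 0.520 overlaps and all genes 0.997. The genes of tRNA (443) and snRNA (154) had none, in bodies of only 0.0333 and 0.0195 Mb.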

How the data were processed

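S100A10 ChIP and input libraries of HCT116 PGCCs with daughter cells, 1 each, were read from the peak list that the authors deposited. The aligner and genome build are not given in the sources used here. Per the file headers, the authors called peaks with MACS 2.1.0.20150420 (MACS2 2.1.0 in the submitters' processing notes) on uniquely mapped reads at a p-value cutoff of 0.005, with reads extended to 260 bp and no fragment model, from 16561424 ChIP and 14962190 input tags. As signal, the authors deposited the height of the pile of extended ChIP reads at a summit (pileup), scaled down to the input. Their deposited fold is a ratio, pileup over local background with 1 added to both. Values of −log10 p and −log10 q, also deposited by the authors, complete the list. The names of these columns were damaged and taken from the column order of MACS. Recomputing −log10 p from pileup and fold differed by a median of 0.000625 and at most 0.519.

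Lines of equal position were merged and scored by the summit of highest −log10 q. Tags were the pileup divided by the scale of 0.903, and 100% of values were whole within 0.02 tags. Local background was recovered as (pileup + 1) / fold − 1, and its genome-wide mean was 1.25. Names of unplaced sequences are those of GRCh38, so RefSeq genes of GRCh38.p14 were used, with a minimum overlap of 1 bp and no strand. Arm boundaries were those of the GRCh38 cytogenetic bands, and none of the 22 fell inside a gene. On the arms, 318 intervals outside the annotated length entered all counts but the densities. Intervals of error are 95% Poisson intervals and cover counting error only. The precision of each peak is limited by its tags. No test was run, since each arm has 1 library and intervals are not replicates. The steps that merge, count and find runs were tested on simulated data. Scripts used Python (version 3.11.15), scipy (1.17.1), pandas (2.3.3), numpy (2.4.6) and, for figures, matplotlib (3.10.9).

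The members and lists were chosen with earlier results of these data known. Named were the 5 densest and 5 sparsest arms, the 5 longest runs by intervals and 5 longest gaps, the 5 fullest 5 Mb windows, the highest and longest intervals of each location, the 20 protein-coding genes with the highest −log10 q, the 5 with the most intervals, members of the gene lists (up to 10 each), S100A10, ANXA2 and the genes measured by PCR. Other names, and the windows and genes given inside the dense stretches, were chosen after their values were seen. As alternatives, limits on −log10 q and on fold were raised, along with other run and boundary distances, other arm lengths, single-summit intervals, other gene overlaps and protein-coding genes only. Motif searches and sequences within the intervals were not analysed here. The results of 1 gene list are not reported here.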

Additional observations from a re-analysis of the deposited data

How the results depend on the processing

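Settings that keep fewer intervals lowered the counts by construction. With a −log10 q of at least 2, 940 intervals were left, and with a fold of at least 5, 446. Intervals per Mb under these 2 limits were 5.73 and 2.73 on 21p, 3.36 and 1.01 on 22p, 0.231 and 0.0356 on 17q, 0.951 and 0.588 on 20q, 0.173 and 0.0305 on 8q, 0.229 and 0.0229 on 16q and 0.196 and 0.0218 on 10q. Under both, 20q stood above 17q, which it did not with all intervals. Without the 5 Mb at the boundary, 21p had 3.0 and 20q 0.737 per Mb, and 22p had 0 over a length not checked for placed reads. With each run counted once, the values were 1.60 on 21p, 0.780 on 22p, 3.70 on 17q, 1.03 on 20q, 2.70 on 8q, 2.42 on 16q and 2.13 on 10q, so that 17q stood highest. Length to the arm boundary gave 3.34 on 10q.

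For the dense stretches, alternatives chosen after seeing the data gave, at a −log10 q of at least 2 and with runs counted once, 0.188 and 3.19 per Mb on 8q, 0.467 and 5.13 on 10q, 0.400 and 5.47 on 16q and 0.340 and 5.23 on 17q. Gaps of at most 10 kb gave 104 runs with 26.1% of intervals, gaps of at most 100 kb 47.4% of intervals, and runs of at least 5 intervals 69 runs with 28.2%. Single-summit intervals had medians of 9 tags and 363.5 bp near the boundary and 10 tags and 403 bp on unplaced sequences. With the boundary at 2 Mb, the median length elsewhere on the arms was 298 bp. Genes with an interval numbered 138 at a −log10 q of at least 2 and 894 when protein-coding. The other 29 values of the main results stayed within their limits of change, which were wide for counts. They include 1992 genes with an interval when gene bodies were extended by 5 kb, against 1347. They also include 205 runs with gaps of at most 100 kb, against 171.

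With 1 ChIP library and 1 input library, differences between positions have no replicate check. Most intervals rest on 6 to 8 tags, so a single interval of this size, and any gene named for it, is uncertain. Placement in repeats and copies of genes is uncertain as well. Windows without an interval are empty only in this list. No paired analysis was possible because each arm has 1 library and no result comes from a test.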

Other observations

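Of 1560 RefSeq miRNA hairpins, none of them on chromosome 8, 6 overlapped an interval. The share of all genes was 2.26% at a median gene length of 5.51 kb, and hairpins and genes were not compared at equal length. MIR8078, within ROCK1P1 on chromosome 18, had 92 tags and a −log10 q of 51.7, and MIR4519 on chromosome 16 had 10 tags and a −log10 q of 2.04. The intervals at MIR196A1, a miRNA of the HOXB cluster, and at MIR6823, MIR1224 and MIR182 had 6 to 8 tags and a −log10 q of at most 0.0148.

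On unplaced sequences, 106 intervals lay on GL000225.1 with a median of 19 tags, 73 on KI270442.1 with a median of 8 and 47 on GL000216.2 with a median of 15. The 2 highest summits of KI270467.1 had 373 and 338 tags over local backgrounds of 261 and 246, with folds of 1.29 and 1.24. On chromosome Y the highest summit, chrY:11721789-11722241, had 167 tags over a background of 51.0, and the longest interval, chrY:56828549-56834710, was 6162 bp with 8 summits.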
